A study of Mus musculus with 8 samples.

Results

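Chromatin accessibility around 10 genes of the primitive streak and early mesoderm was followed in ATAC-seq peak lists of mouse cardiac progenitor cells. The genes were Nodal, Eomes, Gsc, Lhx1, Mixl1, Evx1, Mesp1, Mesp2, Tbx6 and Msgn1. A peak belonged to a gene when that gene was the nearest RefSeq protein-coding gene to its summit, within 100 kb. By this rule 95 of 172983 peaks in 3 lists were taken, and after overlapping peaks of a list were merged they formed 77 of 121250 accessible regions. All 10 genes were found in the annotation and each had at least 1 region.

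The cells were differentiated in culture from embryonic stem cells of the A2Lox.cre strain, as the GLI1-FTA line. This line can be induced with doxycycline to overexpress GLI1, a transcription factor of the Hedgehog pathway. All groups share this line and the same differentiation towards heart muscle. The D5 control group held 2 untreated libraries harvested at day 5. The D7 control group held 3 untreated libraries at day 7, and the D7 GLI1 OE group 3 libraries at day 7 given 500 ng/ml doxycycline for 48 hours. Doxycycline was not given without GLI1, so the agent and the factor cannot be told apart. Each group was deposited as 1 pooled list, so no spread between replicates could be measured and no test between groups was made. That the second control list is that of D7 was inferred from its name.

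Gastrulation passes cells through the primitive streak, where Nodal, a secreted TGF-beta family ligand, and Wnt signals switch on T-box and homeobox factors. Eomes acts in the front of the streak and in the first cardiac mesoderm, where the bHLH factor Mesp1 marks the precursors of the heart. Further back, Tbx6, Msgn1 and Mesp2 direct the paraxial mesoderm that forms somites. In the embryo most of them are expressed only briefly.

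The sequences printed here are of the 4 genes whose D5 regions reached into the 250 bases before the gene start, with 9 of the 10 genes present in the promoter table (Mixl1 was not matched). They are shown because the gene start was the place where the lists could be set base by base against the sequence. They come from RefSeq (GRCm38.p6, the assembly of mm10), read 5′ to 3′ along the gene's own strand, and end at the base before the gene start. Capitals mark the bases inside a D5 region. Evx1 is chr6:52313248-52313497 on the plus strand, Mesp2 chr7:79810477-79810726 plus, Gsc chr12:104473237-104473486 minus and Lhx1 chr11:84525535-84525784 minus.
Evx1: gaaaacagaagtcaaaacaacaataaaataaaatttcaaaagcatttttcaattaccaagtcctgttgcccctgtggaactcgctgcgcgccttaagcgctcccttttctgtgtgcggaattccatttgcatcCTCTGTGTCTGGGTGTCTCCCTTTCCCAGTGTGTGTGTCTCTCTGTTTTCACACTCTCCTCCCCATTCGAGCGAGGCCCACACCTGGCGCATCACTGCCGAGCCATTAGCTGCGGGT
Mesp2: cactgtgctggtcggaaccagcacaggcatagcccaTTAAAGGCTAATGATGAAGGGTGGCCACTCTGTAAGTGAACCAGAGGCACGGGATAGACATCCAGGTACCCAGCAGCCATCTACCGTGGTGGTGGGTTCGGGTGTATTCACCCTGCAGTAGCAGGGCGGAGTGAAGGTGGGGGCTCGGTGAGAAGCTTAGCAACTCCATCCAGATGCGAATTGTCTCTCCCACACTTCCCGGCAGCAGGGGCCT
Gsc: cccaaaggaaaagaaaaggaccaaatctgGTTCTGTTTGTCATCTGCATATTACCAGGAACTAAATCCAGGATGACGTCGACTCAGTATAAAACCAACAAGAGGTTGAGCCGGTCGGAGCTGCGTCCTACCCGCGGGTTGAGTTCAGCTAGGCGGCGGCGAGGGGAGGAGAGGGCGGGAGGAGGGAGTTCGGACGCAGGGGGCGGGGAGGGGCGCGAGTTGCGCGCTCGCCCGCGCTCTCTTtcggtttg
Lhx1: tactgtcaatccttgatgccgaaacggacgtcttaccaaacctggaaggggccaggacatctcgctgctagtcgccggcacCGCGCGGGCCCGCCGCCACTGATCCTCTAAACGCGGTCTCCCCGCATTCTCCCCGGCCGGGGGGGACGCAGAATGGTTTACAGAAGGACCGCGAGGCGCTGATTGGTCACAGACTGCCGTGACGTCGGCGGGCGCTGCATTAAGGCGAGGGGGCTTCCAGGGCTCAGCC

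The printed stretch of Evx1 had 117 of its 250 bases inside a D5 region and 0 inside a region of either D7 list. At Mesp2 the covered part was 214 bases at D5, 44 in D7 control and 0 with GLI1, where the region began just after the gene start. At Gsc 213 bases were covered at D5 and all 250 in both D7 lists, and at Lhx1 169 at D5 and all 250 in both D7 lists. D7 regions are broader in general (median width 238 bp at D5, 480 bp in D7 control and 441 bp with GLI1), so a wider cover at D7 is not particular to these genes. The narrower cover of Mesp2 at D7 went against that general difference. At Evx1 no D7 region was there to compare in width. Of all D5 regions 50.0% were absent from D7 control and 46.7% with GLI1. The printed genes were picked by D5 cover, so they could show a lost region at D7 but not a start covered only at D7. Over the 300-base windows from 250 bases before to 50 after the start, 4 of 9 genes carried a region at D5 (Gsc, Lhx1, Evx1 and Mesp2), against 56.1% of 17492 protein-coding genes with a window. In D7 control 3 of 9 did (Gsc, Lhx1 and Mesp2), against 57.3%, and with GLI1 4 of 9 (Gsc, Lhx1, Mesp1 and Mesp2), against 58.5%.

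Exact motif matches were sought on both strands of these windows. The GLI motif GACCACCCA was in 0 of the 9 windows and in 0.253% of all 32851 windows. The T-box motif TCACACCT was in 1, that of Mesp1, against 1.28% of all windows, and it lay 5 bases after the start, outside every region. The FOXH1 motif AATCCACA, for a partner of SMAD proteins in Nodal signalling, was in 1, that of Mesp2, against 0.855%, and it lay 24 bases after the start, inside the region of every list. The TCF/LEF motif CTTTGAT, read by the effectors of Wnt signalling, was in 2, those of Mesp1 and Msgn1, against 3.73%, and outside every region. The match of T-box at Mesp1 and that of FOXH1 at Mesp2 did not overlap another motif. A match says only that these letters are present.

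The 10 genes held 33 regions at D5, 18 in D7 control and 26 with GLI1. As a share of each list this was 0.0837% (Wilson 95% interval 0.0596 to 0.117), 0.0464% (0.0294 to 0.0734) and 0.0604% (0.0412 to 0.0885). The intervals overlapped. With peaks not merged the shares were 0.0893% (0.0663 to 0.120), 0.0387% (0.0258 to 0.0580) and 0.0444% (0.0309 to 0.0638). There the D5 interval lay above both D7 intervals, although peaks of 1 region are not independent. The genes with fewer regions in D7 control than at D5 were Nodal, Eomes, Gsc, Mixl1, Evx1 and Tbx6. Lhx1, Mesp1, Mesp2 and Msgn1 had equal numbers. Among regions with a −log10 q of 5 or more the 10 genes held 17 at D5, 17 in D7 control and 21 with GLI1. As shares of all such regions these were 0.0748%, 0.0550% and 0.0620%, in the same order as before. The summit lay within 1 kb of a gene end in 12 of 33 regions at D5 (36.4%, beside 32.8% of all regions of that list), in 7 of 18 in D7 control (38.9%, beside 32.6%) and in 7 of 26 with GLI1 (26.9%, beside 30.6%).

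**Figure D1:**
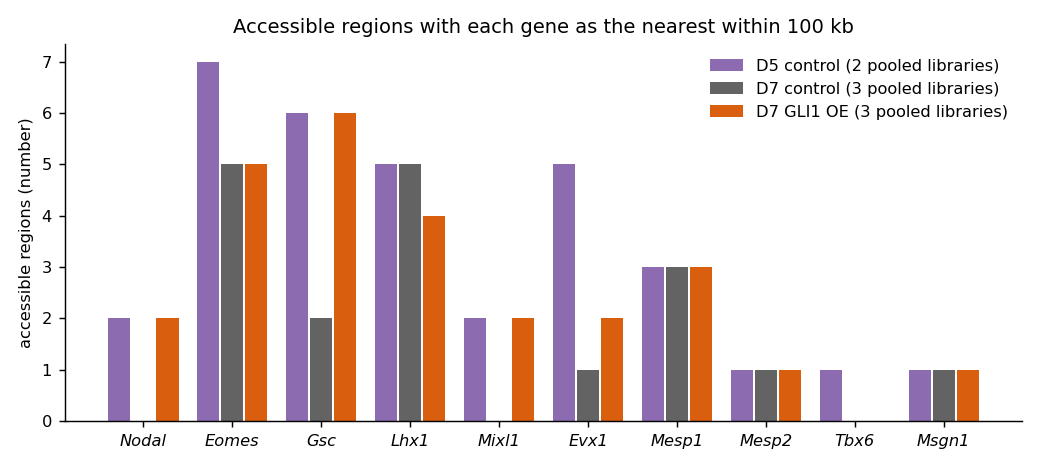
Number of accessible regions (y axis) with each of the 10 genes as the nearest, in the D5 control, D7 control and D7 GLI1 OE lists; each bar is a count from 1 pooled list, with no error. Nodal and Mixl1 had 2 regions at D5, 0 in D7 control and 2 with GLI1, and Gsc had 6, 2 and 6.

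Strength is given as reads at the summit, the number of extended reads stacked on the highest base of a region, which was worked back from the authors' fold and −log10 p. The interval beside each is the exact 95% Poisson interval and covers counting error only; a summit is also the highest of many bases, so its value leans upwards. The background was 0.376 reads per base in the D5 list (its most common value, since that list has a local background), 4.56 in D7 control and 4.70 with GLI1. Reads are therefore read within a list, and side by side only between the D7 lists, whose backgrounds differ by 3.11%. The lowest summit in either D7 list had 13 reads, and at D5 it had 4. Regions at the 10 genes had a median of 10 reads at D5, the same as all regions of that list, 24.5 in D7 control against 33 for all, and 24.5 with GLI1 against 30 for all. They were of middling to low strength in their lists.

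Nodal, the ligand, had no region in D7 control, whose nearest region lay 32753 bp from the intragenic D5 region. At D5 a region inside the gene (chr10:61418276-61418474), 0.421 kb after the start, had 10 reads (4.80 to 18.4). With GLI1 a region at 61418436-61418635 overlapped less than 50% of it, with 19 reads (11.4 to 29.7). The gene start itself was covered in no list. Upstream, the lists differed in place: a D5 region 11.7 kb before the start (61406130-61406395) had 7 reads (2.81 to 14.4), and a GLI1 region 7.72 kb before it (61409585-61410420) had 25 reads (16.2 to 36.9). The lower bound of the upstream GLI1 region was above the 13 reads of the weakest D7 control region, and that of the intragenic one was not.

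Mixl1, a homeobox factor of the streak, showed a like order of lists. A D5 region at 1 end of the gene (chr1:180696839-180697315) had 8 reads (3.45 to 15.8), D7 control had its nearest region 27838 bp away, and with GLI1 a region at 180696842-180697321 had 21 reads (13.0 to 32.1). The D5 and GLI1 regions coincided almost base for base. A second D5 region 0.499 kb beyond the gene had 5 reads (1.62 to 11.7) and lay 159 bp from that GLI1 region. A second GLI1 region 12.2 kb away (180709154-180709365) had 16 reads (9.15 to 26.0), close to the weakest called.

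Gsc, a homeobox factor of the organizer and the front of the streak, had its gene start covered or nearly reached in every list. The region there had 10 reads at D5 (4.80 to 18.4), 45 in D7 control (32.8 to 60.2) and 56 with GLI1 (42.3 to 72.7), so the D7 intervals overlapped. Around it the lists had no region in common. The other 5 D5 regions, 19.2 to 89.9 kb before the start and with 5 to 10 reads, were in neither D7 list. The 5 GLI1 regions absent from D7 control were absent from D5 as well. Of these, the strongest lay 87.8 kb before the start (chr12:104560852-104561283) with 33 reads (22.7 to 46.3), 1748 bp from the nearest D5 region. A pair 9.60 and 10 kb beyond the other end of the gene had 24 reads (15.4 to 35.7) and 20 reads (12.2 to 30.9). The remaining pair, 46.0 and 48.8 kb before the start, had 15 and 16 reads and stood near the lowest called summit. The region of D7 control absent with GLI1 (104471997-104472323) lay inside Gsc, with 18 reads (10.7 to 28.4).

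Lhx1, a LIM homeobox factor of the organizer and front mesendoderm, had the strongest D5 region of all 10 genes, far from the gene. This region, 67.6 kb before the start (chr11:84592731-84593317), had 37 reads (26.1 to 51.0), and 7.64% of all D5 regions had a higher −log10 q. Neither D7 list had it: the nearest D7 control region was 6185 bp away (84585953-84586546), with 48 reads (35.4 to 63.6), and this was itself absent with GLI1 and at D5. A region farther out, 79.1 kb before the start, was present at D5 (84604401-84605028, 23 reads, 14.6 to 34.5) and in D7 control (84604814-84605020, 22 reads, 13.8 to 33.3) and absent with GLI1. These were the only D7 control regions more than 2 kb from Lhx1, and GLI1 had neither. With GLI1 a region 34.7 kb before the start (84559973-84560413) had 28 reads (18.6 to 40.5) and was in no other list. A GLI1 region 3.91 kb before the start, with 20 reads (12.2 to 30.9), and a D7 control region 1.79 kb before it, with 25 reads (16.2 to 36.9), were each in that list alone.

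At the start of Lhx1 the region was present in all lists. Its reads were 24 at D5 (15.4 to 35.7), 53 in D7 control (39.7 to 69.3) and 61 with GLI1 (46.7 to 78.4). The D7 intervals overlapped. A second D5 region, 0.734 kb before the start and with 15 reads (8.40 to 24.7), met the same broad D7 regions. A D5 region 13.2 kb before the start, with 12 reads (6.20 to 21.0), was in neither D7 list. A neighbouring region inside the gene had 22 reads in D7 control (13.8 to 33.3) and 26 with GLI1 (17.0 to 38.1) and was not in the D5 list, whose nearest region was 192 bp away.

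Eomes, the T-box factor, kept the same regions in both D7 lists: all 5 of D7 control overlapped all 5 of GLI1. A group of 4 lay past the far end of the gene, 1.54 to 3.73 kb beyond it in D7 control, and the fifth inside the gene, 0.958 kb after the start. The intragenic region (chr9:118478728-118479543 in D7 control) had 15 reads at D5 (8.40 to 24.7), 38 in D7 control (26.9 to 52.2) and 35 with GLI1 (24.4 to 48.7). The strongest of the group past the end (118489480-118490018) had 39 reads in D7 control (27.7 to 53.3) and 45 with GLI1 (32.8 to 60.2) and was absent at D5. The largest difference was at its neighbour (118489028-118489309), with 21 reads in D7 control (13.0 to 32.1) and 35 with GLI1 (24.4 to 48.7), and these intervals overlapped too. At D5 the cluster past the end began closer to the gene: a region at 118486903-118487313 with 20 reads (12.2 to 30.9) was in neither D7 list, 222 bp from the nearest in D7 control. Inside the gene, a D5 region with 11 reads (5.49 to 19.7) was also in neither D7 list. It lay 90 bp from the nearest D7 control region and 85 bp from that of GLI1. The other D5 regions in neither D7 list were a pair 88.6 and 93.6 kb before the start with 7 and 5 reads. The 250 bases before the Eomes start were covered in no list.

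Evx1, a homeobox factor of the back of the streak that sits beside the HoxA cluster, had 5 regions at D5, 1 in D7 control and 2 with GLI1. Those at the gene itself were in the D5 list alone: the one over the start, printed above, had 12 reads (6.20 to 21.0), and one inside the gene (chr6:52314677-52315005) had 10 (4.80 to 18.4). A D5 region past the far end (52332564-52333025) had 8 reads (3.45 to 15.8) and was also in neither D7 list. The region common to all lists lay 22.2 kb before the start, with 6 reads at D5 (2.20 to 13.1), 28 in D7 control (18.6 to 40.5) and 23 with GLI1 (14.6 to 34.5). A second D5 region there counted as closed although it lay only 40 bp from the D7 control region. With GLI1 a further region 7.41 kb before the start (52305946-52306219) had 23 reads (14.6 to 34.5) and was in no other list.

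Mesp1 and Mesp2, bHLH factors of cardiac precursors and of somite borders, lie side by side on chromosome 7, and several regions attributed to Mesp1 stood between them. The strongest Mesp1 region at D5 was on the other side, past the end of the gene (chr7:79789239-79789784), with 33 reads (22.7 to 46.3), and was in neither D7 list. Between the genes, a region 3.79 kb before the Mesp1 start had 29 reads at D5 (19.4 to 41.6) and 23 in D7 control (14.6 to 34.5; 79797063-79797671) and was absent with GLI1, where the nearest region was 1103 bp away. A region farther from the start was in every list, with 19 reads at D5 (11.4 to 29.7) and 24 in D7 control (15.4 to 35.7). With GLI1 it was split into regions of 13 reads (6.92 to 22.2) and 26 reads (17.0 to 38.1). Inside Mesp1, 340 bp after the start in D7 control, a region with 21 reads (13.0 to 32.1) and 22 with GLI1 (13.8 to 33.3) was absent at D5.

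The region at the start of Mesp2 had 28 reads at D5 (18.6 to 40.5), 47 in D7 control (34.5 to 62.5) and 33 with GLI1 (22.7 to 46.3). The D7 intervals overlapped, with GLI1 at the lower value. Msgn1, a bHLH factor of presomitic mesoderm, had a single region in each list, 11.9 kb past its end in D7 control (chr12:11196308-11196620), with 12 reads at D5 (6.20 to 21.0), 44 in D7 control (32.0 to 59.1) and 47 with GLI1 (34.5 to 62.5). Tbx6, the T-box factor of paraxial mesoderm, had 1 region in all, at D5, over the far end of the gene (chr7:126785188-126785606) with 15 reads (8.40 to 24.7). No region of either D7 list was attributed to Tbx6, and the nearest lay 4072 bp away in D7 control and 4059 bp with GLI1.

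**Figure D2:**
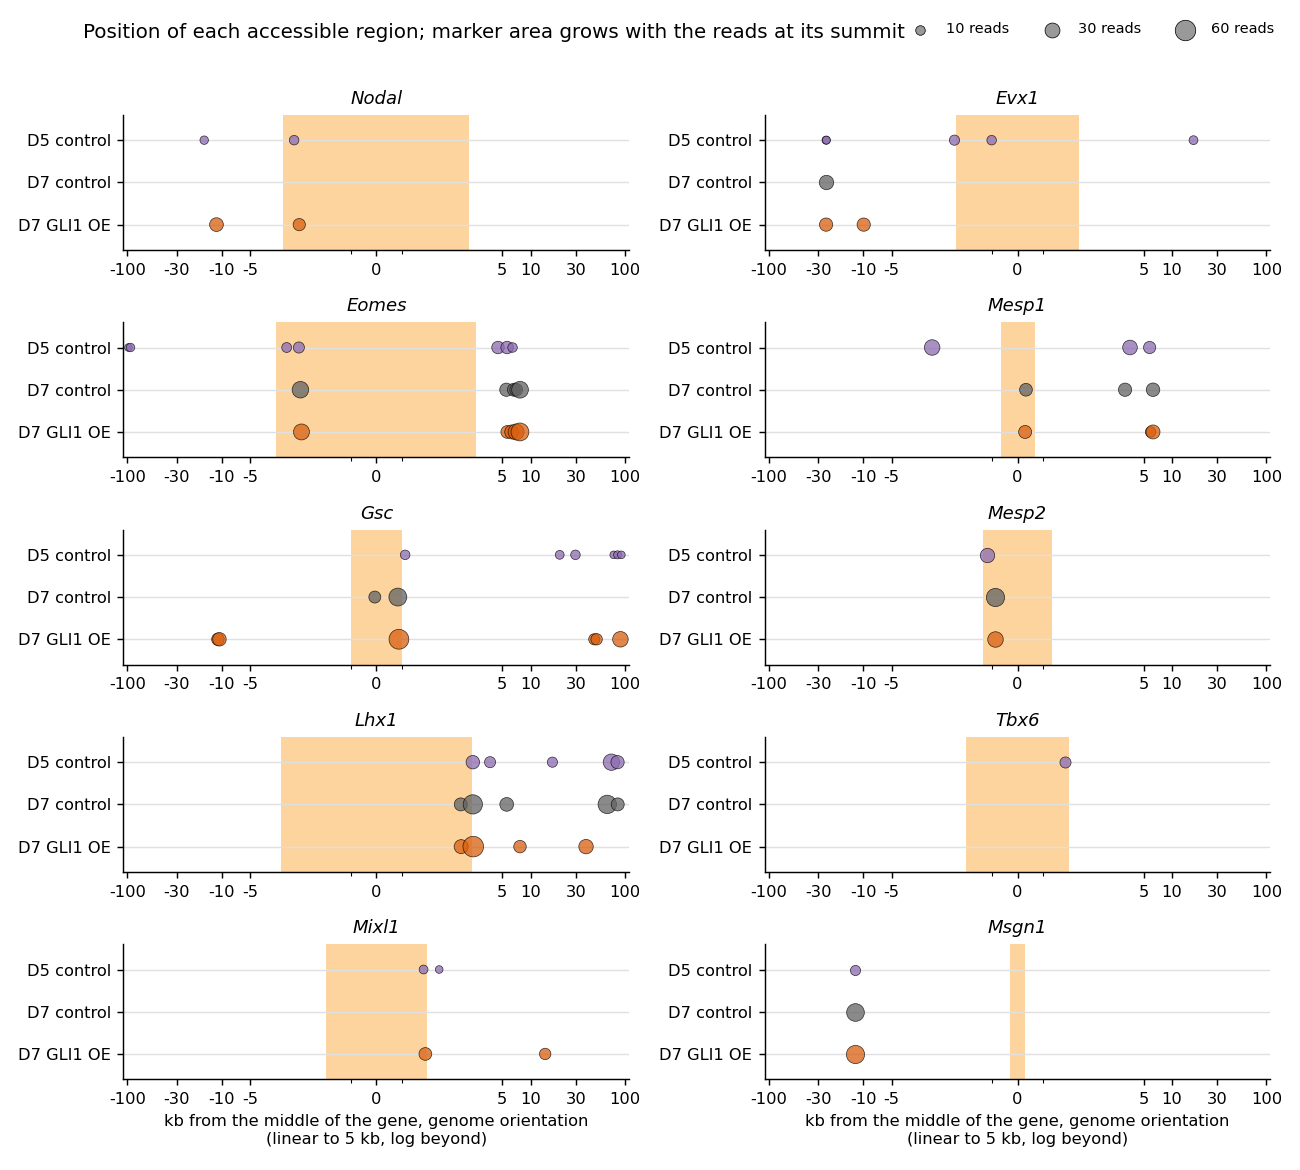
Position of every region at the 10 genes, as kb from the middle of the gene in genome orientation (x axis, linear to 5 kb and logarithmic beyond), for the 3 lists (rows); the shaded band is the gene and the marker area grows with the reads at the summit, which are comparable within a row. Eomes, Mesp2 and Msgn1 have markers at the same places in both D7 rows, whereas Nodal, Mixl1 and Tbx6 have none in the D7 control row.

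The comparison of D7 control with D5 asked which regions were present at 1 stage and not at the other. Of the 33 D5 regions 21 were absent from D7 control (63.6%, 46.6 to 77.8), beside 50.0% of all D5 regions. Of the 18 D7 control regions 7 were absent at D5 (38.9%, 20.3 to 61.4), beside 55.0% of all. Both intervals held the share of all regions, so the 10 genes did not stand apart from it at these numbers. The Wilson intervals throughout treat regions as independent, although several lie at the same gene. Gsc had 5 closed regions and 1 opened, Evx1 4 and 0, Eomes 4 and 2, Lhx1 2 and 3, Nodal and Mixl1 2 and 0 each, Tbx6 1 and 0, and Mesp1 1 and 1. Mesp2 and Msgn1 had 0 of either. With a −log10 q of 5 or more, 8 of 17 were closed, beside 37.5% of all. The counts of single genes moved further there: opened minus closed went from −2 to 0 at Nodal and at Mixl1, from −4 to 0 at Evx1, from −4 to −1 at Gsc, and at Eomes from −2 to 2. The D5 background, taken as its most common value, was 12.1 times lower than that of D7 control. At the D5 regions of the 10 genes the local background ran from 0.484 reads per base (Gsc) to 3.81 (Mesp1). The part of the background in these counts was not tested. The D5 list also had a local background and a shortest peak of 124 bp, against a constant background and 200 bp in both D7 lists. Stage and peak calling cannot be told apart in any comparison with D5.

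The comparison of GLI1 with D7 control asked which regions went with GLI1 induction, and it shares the D7 control list with the comparison above. Of 26 GLI1 regions 12 were absent from D7 control (46.2%, 28.8 to 64.5), beside 39.0% of all, and of 18 D7 control regions 5 were absent with GLI1 (27.8%, 12.5 to 50.9), beside 31.6%. The intervals of both held the share of all regions. With peaks not merged, 14 of 29 were gained (48.3%, 31.4 to 65.6), beside 28.4% of all peaks, and that interval lay above the share of all. Peaks of 1 region are not independent, which the interval does not allow for. Under every other alternative the interval held the share of all. Within 25 kb alone the gained share was below that of all (8 of 22, 36.4%, beside 39.0%). The 12 gained regions were 5 at Gsc, 2 each at Nodal, Lhx1 and Mixl1, and 1 at Evx1. The 5 lost regions were 3 at Lhx1 and 1 each at Gsc and Mesp1. Eomes, Mesp2, Tbx6 and Msgn1 had 0 of either. Only 5 of the 12 gained regions had a lower read bound above the lowest D7 control summit (41.7%, beside 46.8% of all gained regions): 2 at Gsc and 1 each at Nodal, Lhx1 and Evx1. Of the 5 lost regions 4 did (80.0%, 37.6 to 96.4, beside 43.8% of all lost): 3 at Lhx1 and 1 at Mesp1.

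The 14 GLI1 regions shared with D7 control were close in strength. Divided by the background of each list, their reads had a median ratio of GLI1 to control of 1.04, which was also 1.04 over all 26277 shared regions. The ratio was above 1 for 9 of 14, beside 55.6% of all. It ran from 0.525, at the weaker part of the split Mesp1 region, to 1.62 at Eomes. For all 14 the Poisson intervals of the reads overlapped. Such overlap is not a test of a difference, and the paired counts were not tested.

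**Figure D3:**
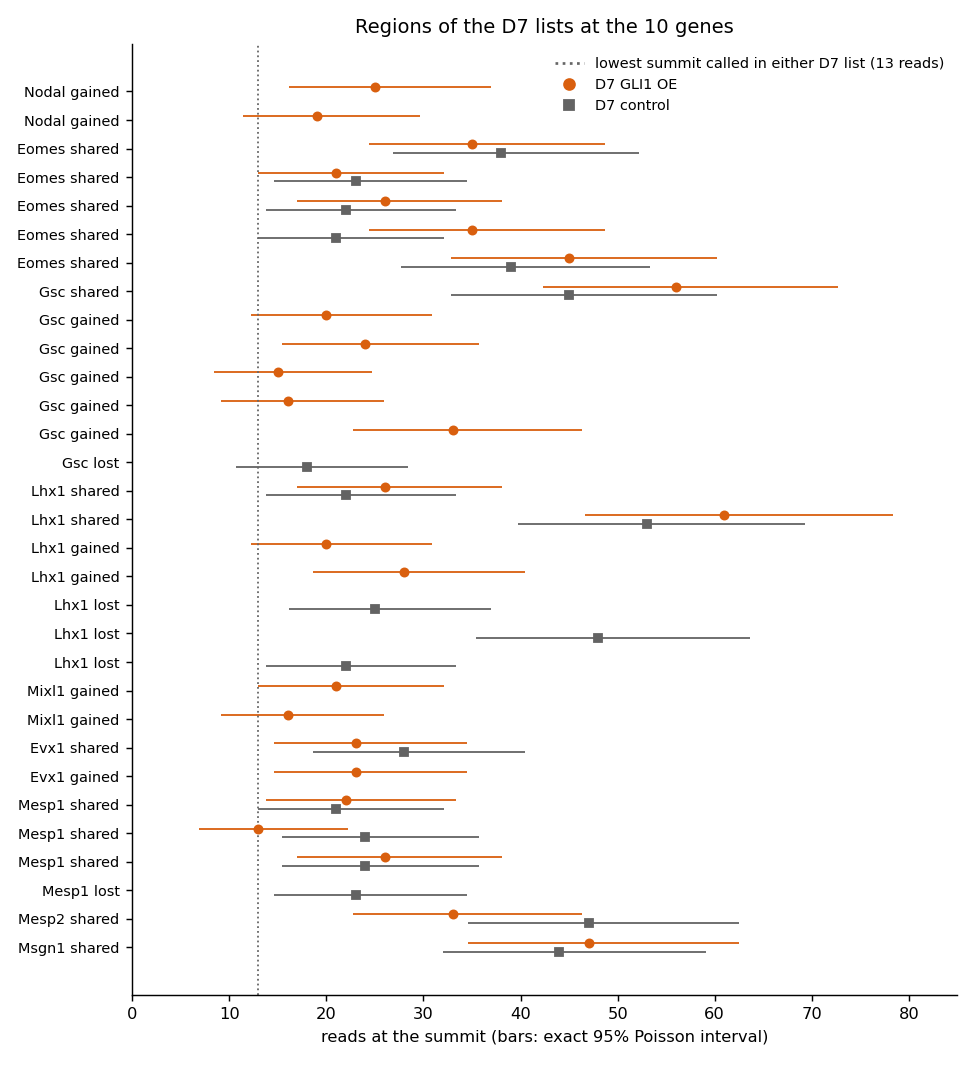
Reads at the summit (x axis, linear) of each region of the D7 lists at the 10 genes, with exact 95% Poisson intervals as bars; circles are D7 GLI1 OE, squares D7 control, and the dotted line is the lowest summit called in either D7 list. The paired intervals of all 14 shared regions overlap, and several gained regions reach down to the line at 13 reads.

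The comparison of GLI1 with D5 asked whether regions of the earlier stage were found with GLI1. Of the 33 D5 regions 20 were absent with GLI1 (60.6%, 43.7 to 75.3), beside 46.7% of all, and of the 26 GLI1 regions 14 were absent at D5 (53.8%, 35.5 to 71.2), beside 56.9%. The share of D5 regions absent with GLI1 depended on the setting in its place beside all regions. Its interval lay above the share of all with a −log10 q of 5 or more (10 of 17, 58.8%, 36.0 to 78.4, beside 34.8%), with an overlap of at least 50% of the shorter region required (22 of 33, 66.7%, 49.6 to 80.2, beside 47.5%) and with peaks not merged (25 of 43, 58.1%, 43.3 to 71.6, beside 39.6%). Both D7 lists held 10 of the 33 D5 regions (30.3%, 17.4 to 47.3, beside 47.0% of all), and neither held 18 (54.5%, 38.0 to 70.2, beside 43.7%). Of the 21 D5 regions absent from D7 control 3 were present with GLI1, at Nodal, Mixl1 and Evx1 (14.3%, 4.98 to 34.6, beside 12.5% of all). Those at Nodal and Evx1 shared less than 50% of the shorter region and counted as absent where that overlap was required. That of Evx1 is the second D5 region 22.0 kb before the start, and the GLI1 region it met also overlapped the D7 control region there. In the opposite case 2 of the 20 D5 regions absent with GLI1 were in D7 control, at Lhx1 and Mesp1 (10%, 2.79 to 30.1, beside 6.42%). Seen from the D7 side, 2 of the 12 gained regions overlapped a D5 region (16.7%, 4.70 to 44.8, beside 13.5% of all gained). Of the 5 lost regions 2 did (40%, 11.8 to 76.9, beside 8.95% of all lost). That interval lay above the share of all lost, from very few regions. Equal numbers did not mean the same places: Gsc had 6 regions at D5 and 6 with GLI1, and only that at the start was common to both.

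**Figure D4:**
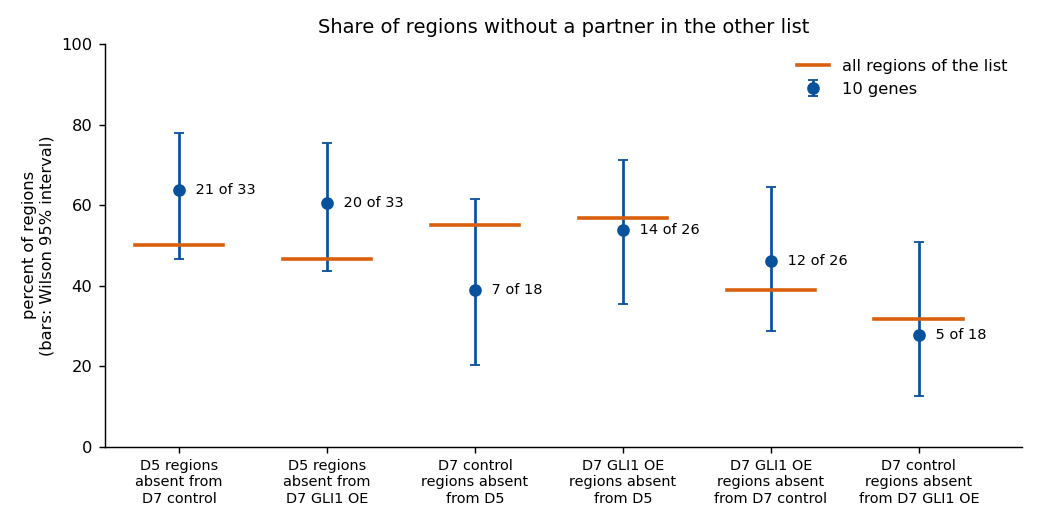
Percent of regions with no overlapping region in the other list (y axis), for the regions of the 10 genes (points, with Wilson 95% intervals as bars and the count beside each) and for all regions of the same list (lines); each of the 6 positions on the x axis names the list and the one it is set against. With regions merged and 1 shared base counted as overlap, the interval holds the line in all 6, as for the 21 of 33 D5 regions absent from D7 control beside 50.0%.

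Other genes of the same pathways were counted the same way. They are to be read beside the 39.0% gained, 31.6% lost, 55.0% opened and 50.0% closed of all regions. The 14 genes of Nodal signalling had 24 regions at D5, 33 in D7 control and 30 with GLI1, with 10 gained and 11 lost (33.3% each). Their opened regions were 24 (72.7%) and their closed regions 12 (50%). Smad3, a transducer of the signal, had 17 opened and 2 closed regions. Pcsk6, a protease that processes the ligand, had 3 opened and 0 closed. The 10 genes of the streak and its signals had 32, 21 and 36 regions, with 19 gained (52.8%) and 5 lost (23.8%). Their opened regions were 9 (42.9%) and their closed regions 20 (62.5%). Foxa2, a forkhead factor of the front streak and endoderm, gave 11 of the 19 gained and 7 of the 20 closed regions. The 10 genes of mesoderm after the streak had 34, 36 and 37 regions, with 11 gained (29.7%) and 9 lost (25%). Their opened regions were 23 (63.9%) and their closed regions 17 (50%). Ripply2, a repressor acting at somite borders, had 4 gained and 0 lost, and 0 opened and 4 closed. Hand1, a bHLH factor of the heart and lateral mesoderm, had 0 gained and 3 lost, and Pdgfra, a receptor of early mesoderm, 3 opened and 0 closed.

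The labelled cell type could be checked only by accessibility, not by expression. Of 6 cardiac marker genes with a promoter window, 3 carried a region at D5, 5 in D7 control and 2 with GLI1. Of all protein-coding genes with a window 56.1%, 57.3% and 58.5% did. The 2 cardiac markers with GLI1 were Isl1 and Mef2c. Myl7, which encodes an atrial myosin light chain, had no region over its window in any list. Of 4 pluripotency markers 1, Zfp42, carried a region at D5 and 0 did in either D7 list. Counted over all their regions, the 8 cardiac markers had 39 regions at D5, 27 in D7 control and 25 with GLI1. Of these 10 were gained (40%, beside 39.0% of all) and 11 lost (40.7%, beside 31.6% of all). Counts at markers of other cell types also differed between the D7 lists. The 2 endoderm markers, Foxa2 (also in the streak list) and Sox17, had 12, 4 and 19 regions, with 15 of 19 gained (78.9%, beside 39.0% of all) and 0 of 4 lost. The 2 endothelial markers, Cdh5 and Pecam1, had 8, 6 and 11, with 9 of 11 gained (81.8%) and 4 of 6 lost (66.7%). The 3 neural progenitor markers had 12, 13 and 17, with 7 of 17 gained (41.2%) and 4 of 13 lost (30.8%). The 4 pluripotency markers had 9, 3 and 5, with 3 of 5 gained (60%) and 1 of 3 lost (33.3%). The part of differing cell mixtures in the gained and lost counts of the 10 genes was not tested. At the limit of the rule, the farthest region taken was that of Eomes at D5, 93.6 kb away with 5 reads, and the nearest left out was 1 of Lhx1 at D5, 110 kb away with 14 reads.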

How the data were processed

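ATAC-seq peaks had been called by the submitters on pooled libraries, giving 1 list per group. Bowtie2 2.3.2, SAMtools 1.5, Picard and MACS2 2.1.1 and the build mm10 are named per the submitters' processing notes. The deposited lists give each peak a fold enrichment (a linear ratio), a −log10 p and −log10 q, a score of 10 times the −log10 q cut to a whole number, and the offset of its summit. These are the authors' values. The D7 lists were made by the authors with blacklisted and mitochondrial peaks removed, per the file names. Each library came from 150000 cells, per the labels' protocols. Library totals are not given in the sources used here. Backgrounds stand in for depth between the D7 lists only, where each is constant and no peak is shorter than 200 bp. For D5 the most common of its local values was used, and its peaks went down to 124 bp. Depth and calling settings therefore cannot be told apart in the D5 background.

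Peaks of chromosomes 1 to 19 and of X and Y were merged where they overlapped or touched (Python 3.11.15, pandas 2.3.3). A region took the summit, fold and −log10 q of its peak with the highest −log10 q, and went to the nearest of 21887 RefSeq protein-coding genes (GRCm38.p6) within 100 kb. Regions sharing at least 1 base were counted as shared. A GLI1 region absent from D7 control was called gained and the opposite lost; a D7 control region absent from D5 was called opened and the opposite closed. Reads at the summit, k, solved fold = (k + 1)/(background + 1) together with the Poisson tail p. The solved p differed from the deposited −log10 p by at most 0.000196. The steps were checked on simulated data. Every member gene was described; other pathway genes were named at a net difference of at least 3 regions. The members and lists were chosen with earlier results of these data known.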

Additional observations from a re-analysis of the deposited data

How the results depend on the processing

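No paired analysis was possible because libraries were pooled into 1 list per group; leaving out single libraries was likewise not possible. Of 9 alternatives, 3 were chosen after seeing the data: curated genes only, regions within 200 bp counted as shared, and the lower read bound. The 12 gained regions became 5 with the lower read bound above the weakest D7 control summit. The 5 lost became 3 within 25 kb. The 21 closed regions became 8 with a −log10 q of 5 or more. D5 regions absent with GLI1 went from 20 to 10 at that −log10 q (10 of 17, 58.8%, beside 34.8% of all) and to 12 within 25 kb (12 of 25, 48%, beside 46.7%), and GLI1 regions absent at D5 from 14 to 9 with equal list lengths. Fewer regions were counted under each of these, by construction. The net of opened over closed regions at Eomes turned from −2 to 2 with a −log10 q of 5 or more. Of the other values for single genes (gained minus lost, opened minus closed) 23 moved, 7 of them at that −log10 q, 5 with peaks not merged and 4 within 25 kb, where Gsc went from −4 to 0 opened minus closed and from 4 to 1 gained minus lost. The other 44 counts over the 10 genes stayed within 1.5 times, but the members' interval left the share of all regions for gained with peaks not merged and for D5 regions absent with GLI1 under 3 settings, as given above. Counts of this size, a D5 list whose most common background was 12.1 times lower than in D7 control, and pooled libraries limit every comparison.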
